A study of Mus musculus with 9 samples.

Results

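Cd36, Angptl4 and Vnn1 were described in adult mouse liver as 3 of the 1525 genes of a deposited RNA-seq gene list. They were taken from that list by symbol, and were picked because their mean counts differed between the genotypes, so the difference between genotypes is given as a description and no test was made of it. The list compared 5 control livers with 4 Alb-D2KO livers, all from adult C57BL/6 mice. Both genotypes carried Cre recombinase under the albumin promoter, which is active in hepatocytes. The study describes the controls as littermates, and litter was not taken into account here. In Alb-D2KO mice Cre also met floxed alleles of Dio2, the gene of the type 2 deiodinase that activates thyroxine to T3, a design meant to inactivate the gene in hepatocytes. Mice were kept at room temperature on chow. The list does not hold Dio2, and its deletion was not checked here.

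PPAR-alpha is a nuclear receptor that binds fatty acids and, with its partner RXR, turns on genes of fatty acid uptake, oxidation and ketone body formation in hepatocytes, above all in fasting. Cd36, Angptl4 and Vnn1 are known targets of this receptor and stand at 3 points of lipid handling. Cd36 encodes a membrane receptor that takes up long-chain fatty acids and oxidised lipoproteins. Angptl4 encodes a secreted inhibitor of lipoprotein lipase, the enzyme that frees fatty acids from circulating triglyceride. Vnn1 encodes a membrane-anchored pantetheinase that splits pantetheine into cysteamine and pantothenic acid, the vitamin from which coenzyme A is made. Cd36 and Angptl4 are also made by endothelial cells and adipocytes, and Cd36 by macrophages.

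The mm10 gene models of GENCODE M21 placed Cd36 at chr5:17781690-17888801 on the minus strand (ENSMUSG00000002944.15), with 6 transcripts that began at 6 positions. Angptl4 lay at chr17:33773750-33781830 on the minus strand (ENSMUSG00000002289.16), with 4 transcripts. Vnn1 lay at chr10:23894688-23905343 on the plus strand (ENSMUSG00000037440.8), with 2 transcripts. No other gene of the annotation overlapped any of the 3. Reads of Cd36 and Vnn1 could be told apart from those of other genes over their whole length, since 0% of their 31-base words occurred in transcripts of another gene. For Angptl4 the share was 0.366%.

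A reference promoter is shown for Cd36, as the member for which the reference table held a window. The window spans 250 bases before and 50 after a RefSeq start site, at chr5:17835847-17836146 on the minus strand of GRCm38.p6. This start site lay 179 bases from the nearest start of a GENCODE transcript and 52905 bases inside the gene from its outermost start, so the window is an internal start of the gene model. Capitals mark exact matches, on either strand, to AGGTCA, the hexamer that nuclear receptors of this class bind, and to GGGCGG, the GC box.
Cd36 promoter: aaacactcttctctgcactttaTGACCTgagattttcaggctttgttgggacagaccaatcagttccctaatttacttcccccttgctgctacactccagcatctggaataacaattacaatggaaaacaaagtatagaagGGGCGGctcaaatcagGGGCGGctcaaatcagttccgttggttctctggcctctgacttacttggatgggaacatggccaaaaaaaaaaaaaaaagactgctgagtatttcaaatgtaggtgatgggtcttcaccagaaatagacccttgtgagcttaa

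The AGGTCA hexamer lay on the opposite strand, as TGACCT, and began 228 bases before the start site. Of 32851 reference promoters of this length, 16.3% held at least 1 exact AGGTCA, as did 14.4% of those of listed genes lower in Alb-D2KO. The GC box occurred at 2 places, 109 and 93 bases before the start site, and 19.5% of all promoters and 33.9% of 1031 promoters of listed genes lower in Alb-D2KO held at least 2. PPAR and RXR bind as a pair to a direct repeat of AGGTCA with 1 base between the copies. Allowing at most 2 mismatches over the 12 fixed positions, on both strands, the Cd36 window held 1 such repeat, with 2 mismatches, beginning 63 bases before the start site. It did not overlap the exact hexamer. The same search found a match in 3.86% of all promoters and in 3.49% of those of the lower listed genes. These matches describe letters in a window and were not tested for binding.

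All 3 genes were lower in Alb-D2KO liver, Vnn1 by the largest factor and Angptl4 by the largest number of reads. The values are the authors' mean estimated read counts per library. The study's methods name a normalization, given as absolute value. Summed over a genotype, however, the count of each member came within 0.0283 reads of a whole number. The means were therefore taken as not scaled for library depth. Values of a gene in each animal were not analysed here, so no gene has a measured spread and whether the genotypes overlapped is not known. The intervals that follow are exact 95% Poisson intervals of a mean, or exact binomial intervals of a ratio. They cover counting error only, treat reads as independent molecules, and leave out the variation between livers.

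Cd36 averaged 599.8 reads in control (interval 579 to 622, from 2999 reads over 5 libraries) and 364 in Alb-D2KO (346 to 383, from 1457 reads over 4 libraries). The ratio was 0.607 (0.570 to 0.647), a log2 ratio of -0.72, or 39.3% fewer reads of the fatty acid receptor.

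Angptl4 was the most abundant of the 3, with 2326 reads in control (2284 to 2368) and 1774 in Alb-D2KO (1732 to 1815). The ratio was 0.763 (0.740 to 0.785), a log2 ratio of -0.39. The lipase inhibitor thus had the smallest relative difference of the 3, 23.7%, while its difference of 552 reads per library was the largest.

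Vnn1 averaged 429 reads in control (411 to 447) and 230.0 in Alb-D2KO (215 to 245). The ratio was 0.537 (0.496 to 0.580), a log2 ratio of -0.90, so that the pantetheinase had 46.3% fewer reads. The counting interval of its ratio overlapped that of Cd36, and the interval of Angptl4 overlapped neither.

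**Figure D1:**
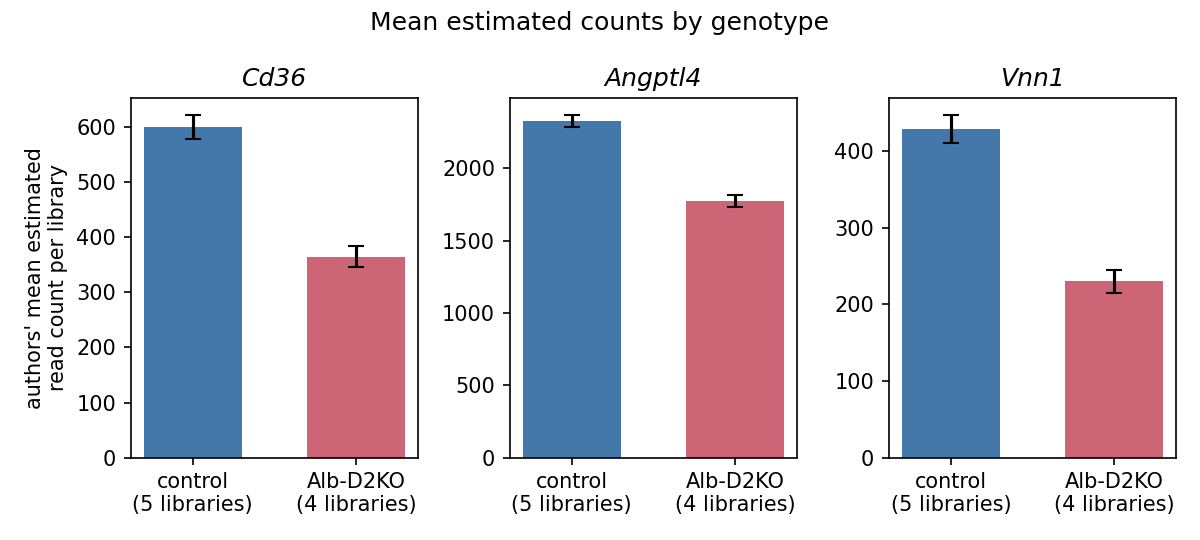
Mean estimated read count per library (vertical axis, linear, from 0) of Cd36, Angptl4 and Vnn1 in 5 control and 4 Alb-D2KO libraries. Bars are the authors' means and lines are exact 95% Poisson intervals, which hold counting error only. Each gene is lower in Alb-D2KO, from 599.8 to 364 for Cd36, from 2326 to 1774 for Angptl4 and from 429 to 230.0 for Vnn1.

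All 3 members were lower, and so were 1363 of the 1525 listed genes (89.4%). Since the members were chosen on this contrast, nothing is read from that count. Cd36 and Vnn1 were also at least 1.5-fold lower, as were 45.1% of the listed genes. Angptl4 was 1.31-fold lower, near the lower end of the list, whose smallest fold was 1.21. The median ratio of all listed genes was 0.686, and that of the lower genes was 0.665 with quartiles of 0.540 and 0.747. Among the 1363 lower genes, 335 had a ratio below that of Vnn1 (24.6%), 512 below that of Cd36 (37.6%) and 1107 below that of Angptl4 (81.2%). Vnn1 therefore sat at the lower quartile of these genes, Cd36 between it and the median, and Angptl4 above the upper quartile. The listed ratios lay further from equality at low counts, so the members were also placed among lower genes whose control mean was within 2-fold of their own. There, 25 of 314 genes had a lower ratio than Vnn1 (7.96%), 43 of 328 than Cd36 (13.1%) and 130 of 240 than Angptl4 (54.2%). The medians of these genes were 0.728, 0.731 and 0.757, so Angptl4 was at the typical ratio for its level and Vnn1 and Cd36 were below theirs. These ranks describe the list and were not tested.

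**Figure D2:**
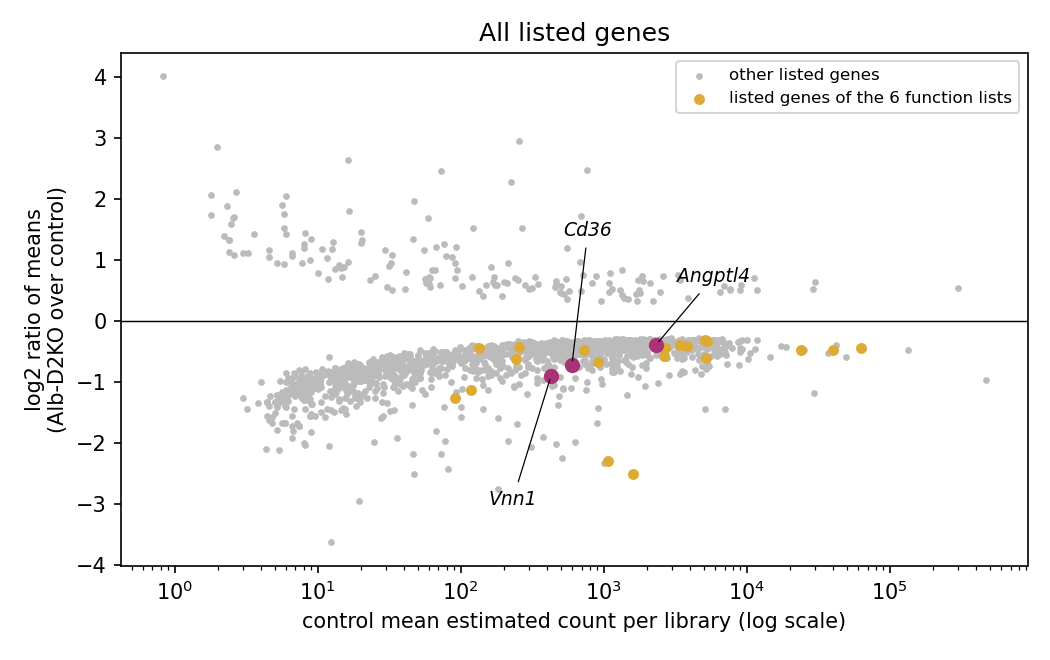
Log2 ratio of mean counts (vertical axis, Alb-D2KO over control) against the control mean count per library (horizontal axis, log scale) for the 1525 listed genes, 1 point per gene. Purple points are the 3 members and gold points the other listed genes of the 6 function lists. The members lie at -0.72 (Cd36), -0.39 (Angptl4) and -0.90 (Vnn1), inside the band of lower genes, and the list holds no gene within 1.21-fold of equality.

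Because the means were taken as unscaled, each ratio was taken to carry any difference in depth. The control libraries had 33491489 ± 3199891 (SD, n = 5) reads assigned to genes, that is, reads lying wholly in exons. The Alb-D2KO libraries had 31223823 ± 3447611 (SD, n = 4). The Alb-D2KO to control ratio of means was 0.932 for assigned reads, 0.922 for the upper quartile over genes, 0.900 for total reads and 0.890 for the median over genes. All 4 measures were thus lower in Alb-D2KO on average. None of these differences reached p < 0.05 (two-sided exact permutation tests, unadjusted p of 0.143 to 0.302, Benjamini-Hochberg adjusted p = 0.302 for each). With 9 libraries this does not show that depth was equal. At total reads, Alb-D2KO replicate 1 stood apart from the other libraries of its genotype. The gene means include that library and could not be recomputed without it.

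Dividing by these ratios brought every member nearer to equality. It could turn none, since the smallest fold of the list, 1.21, exceeds the largest depth difference, a ratio of 0.890. Cd36 went from 1.65-fold lower to between 1.46-fold and 1.54-fold lower. Vnn1 went from 1.86-fold to between 1.66-fold and 1.74-fold. Angptl4 went from 1.31-fold to between 1.17-fold and 1.22-fold, and passed the list's threshold of 1.2-fold when divided by the ratios of assigned reads or of the upper quartile but not by those of total reads or of the median.

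**Figure D3:**
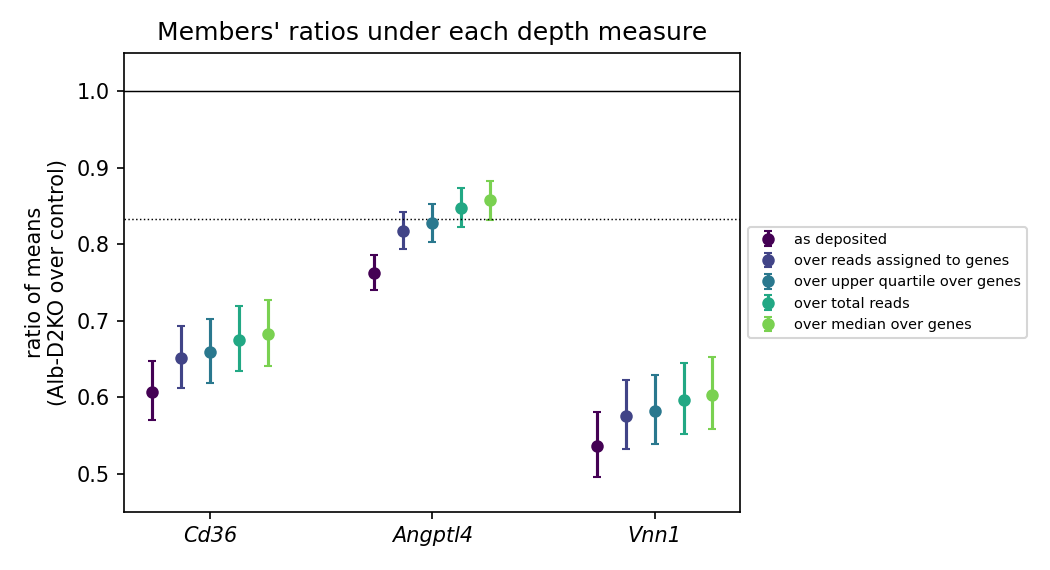
Ratio of mean counts (vertical axis, Alb-D2KO over control, starting at 0.45) for the 3 members as deposited and after division by the genotypes' ratio of each of 4 depth measures. Lines are 95% counting intervals, the solid line marks equality and the dotted line a 1.2-fold lower level. Cd36 and Vnn1 stay under the dotted line in each setting, and Angptl4 lies on both sides of it, from 0.763 to 0.857.

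Ratios between members within a genotype do not move with a common depth factor. In control liver, Angptl4 had 3.88 times the reads of Cd36 and 5.43 times those of Vnn1, and in Alb-D2KO liver 4.87 and 7.71 times. Cd36 had 1.40 times the reads of Vnn1 in control and 1.58 times in Alb-D2KO. In the pooled means, Angptl4 thus made up more of the 3 genes' reads in Alb-D2KO. This restates that its ratio was the nearest to equality, and the spread between livers is not known.

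Per kilobase of merged GENCODE M21 exons and per 1000000 assigned reads, Angptl4 was at 19.6 in control and 16.0 in Alb-D2KO, above both other members. On the same scale, Vnn1 was at 5.30 in control (counting interval 5.07 to 5.53) and Cd36 at 4.99 (4.81 to 5.17). In Alb-D2KO they were at 3.05 (2.86 to 3.25) and 3.25 (3.08 to 3.42). The per-kilobase ratio of Vnn1 to Cd36 was 1.06 in control (exact binomial counting interval 1.004 to 1.123) and 0.938 in Alb-D2KO (0.863 to 1.02). The order of these genes was thus resolved by counting error only narrowly in control and not in Alb-D2KO, and the spread between livers is not known. Merged exons include isoforms that the liver may not use.

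The library summaries gave a further view of level. The library means ran over about 23004 genes (median of 9 libraries). This number was computed here, as assigned reads divided by the mean over genes. The upper quartile of the estimated count over genes ran from 493 to 604 in the control libraries and from 442 to 616 in the Alb-D2KO libraries. The Cd36 mean lay above the upper quartile of 4 of 5 control libraries, and below that of all 4 Alb-D2KO libraries. The Vnn1 mean lay below the upper quartile of every library of its genotype, and the Angptl4 mean above it. Against the genotype's mean of the library medians, Cd36 was 8.90 times as high in control and 6.07 times in Alb-D2KO, Vnn1 6.36 and 3.84 times, and Angptl4 34.5 and 29.6 times.

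**Figure D4:**
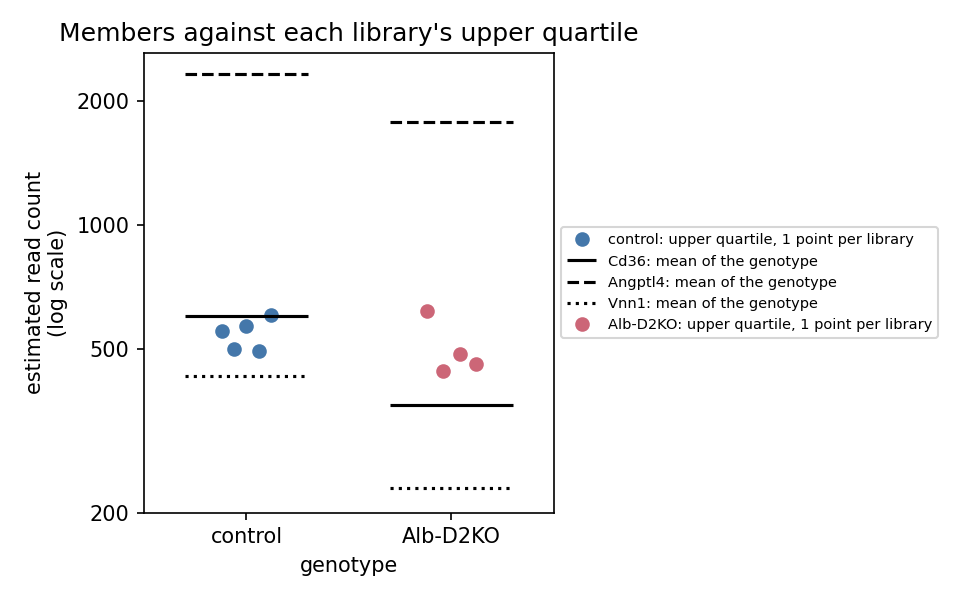
Upper quartile over genes of the estimated read count in each library (points, 5 control and 4 Alb-D2KO) with the authors' genotype means of Cd36, Angptl4 and Vnn1 (horizontal lines) on a log axis. The Cd36 line is above 4 of 5 control points and below all 4 Alb-D2KO points, Angptl4 is above all points and Vnn1 below all points.

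Other genes of the same pathways were read from 6 lists of functions, 95 genes in all with the members included. Of these, 22 were listed (23.2%), against 6.63% of the genes that the library means run over, many of which have few reads. The lists were written with earlier results of these data known, and the members came from the listed genes. Nothing is therefore read from this difference in share. All 22 were lower, beside 89.4% of all listed genes. With the genotypes' difference in depth divided out, 20 (assigned reads), 18 (total reads) or 16 (medians) of them were still at least 1.2-fold lower. With assigned reads, Ncor1 (0.862) and Acadm (0.851) fell short. With medians 6 fell short, among them Ncor1 (0.903), Acadm (0.892), Angptl4 (0.857), Acadl (0.842) and Slc27a1 (0.838). As deposited, the median ratio of the 22 was 0.718, against 0.686 over all listed genes. The other 73 have no value here. Without the members, 19 of 92 genes were listed, with a median ratio of 0.720.

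Of 16 genes of fatty acid uptake and binding, 4 were listed and lower. Beside Cd36 these were Acsl1, which activates long-chain fatty acids with coenzyme A, at a ratio of 0.722 from a control mean of 39806 reads, the transporter Slc27a1 at 0.746 and the adipocyte and macrophage binding protein Fabp4 at 0.738. Cd36 had the lowest ratio of the 4, and its interval ended below the values of all 3 others.

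Of 18 genes of lipoprotein lipase and triglyceride-rich lipoproteins, 2 were listed. Hepatic lipase, Lipc, had a mean of 2629 reads in control and 1769 in Alb-D2KO, a ratio of 0.673 (0.654 to 0.693). Angptl4 was the other, so an inhibitor of lipoprotein lipase and a lipase of the liver sinusoid were both lower. Lpl itself and the angiopoietin-like genes Angptl6 and Angptl8 were not listed.

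Of 15 genes of pantetheinase and coenzyme A metabolism, the listed genes were the pantetheinases Vnn1 and Vnn3. Vnn3 averaged 912 reads in control and 574.5 in Alb-D2KO, a ratio of 0.630 (0.599 to 0.662). This interval lay above that of Vnn1. The paralogs lie 24845 bases apart on the same strand, with Vnn3 at chr10:23851462-23869843, and 0% of the 31-base words of Vnn3 occurred in another gene. No pantothenate kinase gene (Pank1 to Pank4) was listed. Vnn3 was also the listed gene among 20 protein-coding genes within 500 kb of Vnn1, and none of 5 around Cd36 was listed.

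Of 15 genes of PPAR receptors, partners and coregulators, 3 were listed and lower. Pparg, the family member that drives fat storage, was at 0.650, the coactivator Ppargc1b at 0.720 and the corepressor Ncor1 at 0.804. Ppara, the receptor for which the 3 members are known as targets, was not listed, nor was its partner Rxra. Of 13 genes of the lipid droplet, the triglyceride lipase Pnpla2 was listed, at 0.734.

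The list of ketogenesis, fuel switch and secreted targets had 10 of 18 genes listed, all lower, with ratios from 0.175 to 0.793. Of the genes that the library means run over 6.63% were listed, and 89.4% of all listed genes were lower. This list too was written with earlier results known, so nothing is read from its counts. The peroxisomal oxidation genes Acaa1b and Ehhadh were at 0.715 and 0.653. The mitochondrial dehydrogenases Acadm and Acadl were at 0.793 and 0.749. The fatty acid omega-hydroxylases Cyp4a10 and Cyp4a14 had the lowest ratios, 0.175 (5.72-fold lower) and 0.204 (4.89-fold lower), with log2 ratios of -2.52 and -2.29 against -0.90 for Vnn1. The thioesterase gene Acot2 and Cyp4a31 were also among the listed genes. Reads of Cyp4a10, Acaa1b, Acot2 and Cyp4a31 were less certain, since from 32.0% to 50.1% of their 31-base words occurred in another gene. Cpt1a, which brings fatty acids into mitochondria, and the secreted hormone gene Fgf21 were not listed.

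**Figure D5:**
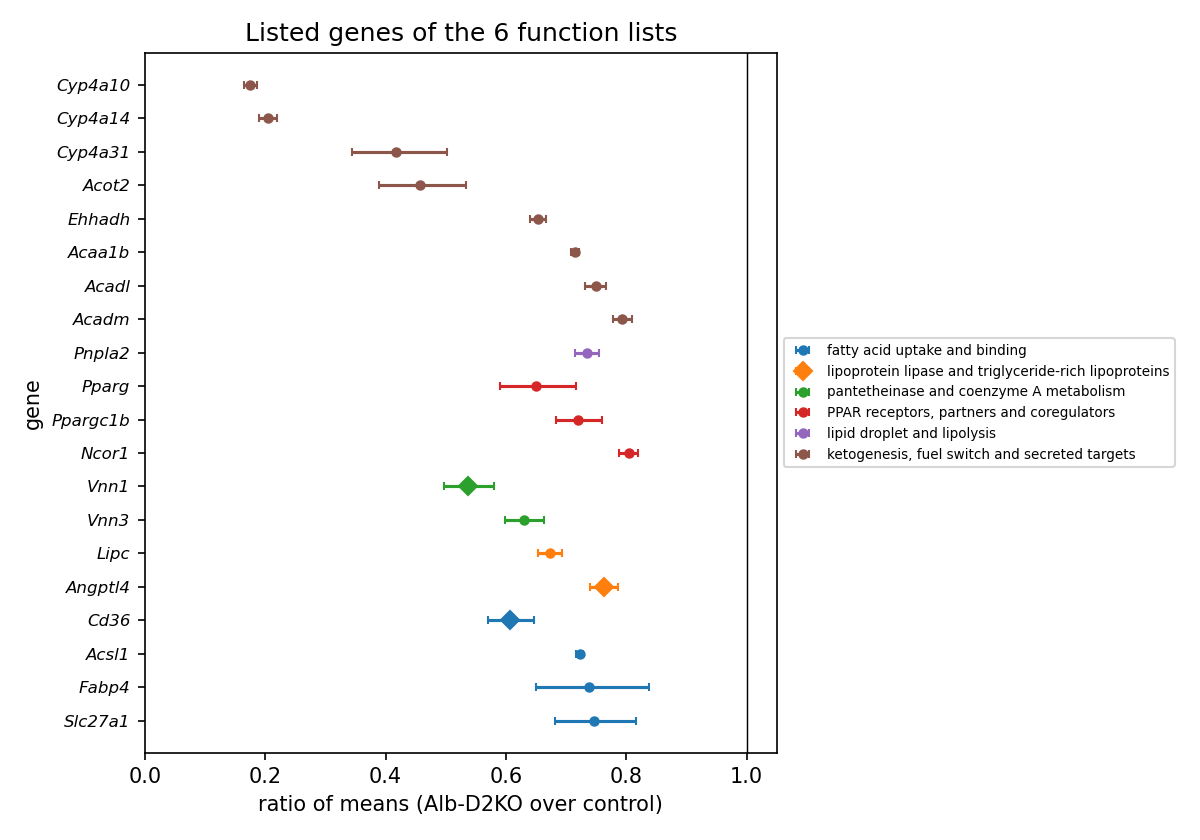
Ratio of mean counts (horizontal axis, Alb-D2KO over control, linear, from 0) for 20 of the 22 listed genes of the 6 function lists, coloured by list. Lines are 95% binomial counting intervals, diamonds are Cd36, Angptl4 and Vnn1, and the vertical line marks equality. All 20 lie to its left, from 0.175 for Cyp4a10 to 0.804 for Ncor1.

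The listed genes nearest to each member, by distance in the plane of log2 ratio and log2 control mean over the 2 genotype means, were Sco2, Spred1 and Zfp704 for Cd36, Rps7, Kdr and Kidins220 for Angptl4, and Rgs3, Zyg11a and Serpina7 for Vnn1. Sco2 was close to Cd36 in both means, with 598 reads in control and 358 in Alb-D2KO. Its reads were uncertain, since 89.7% of its 31-base words occurred in another gene, and for Rps7 the share was 30.6%. None of the 9 belonged to a function list. With 2 points per gene, such likeness holds little information.

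In bulk liver, fewer cells of a type and less RNA per cell cannot be told apart, and Cd36 and Angptl4 are made by several cell types. None of 6 hepatocyte markers (Alb, Apoa1, Ttr, Serpina1a, Cps1, Hnf4a) was listed, so the tissue label could not be checked by their level. Of 5 liver endothelial markers, Stab2 was listed at a ratio of 0.805 and Kdr at 0.789. Kdr had 2291 reads in control and 1806 in Alb-D2KO, close to Angptl4 in both. With the difference in assigned reads or in medians divided out, Stab2 was at 0.863 or 0.905. Kdr was then at 0.846 or 0.886, and neither gene was 1.2-fold lower by either measure. None of 5 Kupffer cell and macrophage markers was listed. Of 5 markers each, Pdgfrb was listed for stellate cells at 0.767 and Fabp4 for adipocytes at 0.738. Of 5 cholangiocyte markers Sox9 was listed, at 1.51, higher in Alb-D2KO, and of 5 for skeletal muscle none. With the same divisions Pdgfrb was at 0.823 or 0.862, Fabp4 at 0.792 or 0.830 and Sox9 at 1.62 or 1.70. Unlisted markers have no value here, so a summed marker level cannot be given, and the part of these cells in the members' ratios was not tested.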

How the data were processed

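RNA from 9 livers was sequenced as paired-end reads. Per the labels and the study's methods, the authors used bcl2fastq, aligned with STAR to mm10 and estimated counts per GENCODE M24 gene with Partek. The methods also name a normalization, given as absolute value. Whether strand was used is not given in the sources used here. The deposited gene table holds estimated counts (a sum over libraries and a mean per genotype) for genes past 1.2-fold and an unadjusted p of 0.05. Its authors' p-values, false discovery rates, ratios and fold changes, and the enrichment tables, were not used. The deposited library tables gave the read count, the percent of reads within exons, and the mean, median and quartiles of estimated counts over genes. In these, 9 per-library columns were not used.

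In 1525 of 1525 genes 4 Alb-D2KO means and 5 control means added up to the deposited sum within 0.1%. Reads assigned to genes were total reads multiplied by the exonic percent. Dividing them by the mean over genes gave the number of genes that the library means run over. Ratios were computed from the means, with no pseudocount. The 31-base words came from GENCODE M21 transcripts, and all 130 list symbols matched. Of the 1525 listed symbols, 1496 matched. Groups came from the genotype labels, and samples were numbered in accession order. The sample titles number each library separately, and each was taken as 1 animal. Depth was compared by exact permutation over 126 assignments (smallest possible p 0.0159) in scipy 1.17.1. Scripts were tested on simulated data. Members and lists were chosen with earlier results of these data known. The genes named were the members, the listed genes of each list (at most 8 of a list with values, by summed count) and the 3 nearest to each member. Genes named as not listed and the promoter matches described were chosen after values were seen. So were the neighbours of Angptl4 and the ranks among genes of similar control mean. Some list genes are counted but not reported here by name. Alternatives are given at the end.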

Additional observations from a re-analysis of the deposited data

Results flagged for a closer look

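Alb-D2KO replicate 1 had 50322325 total reads, against at most 41723927 in the other 3 Alb-D2KO libraries, a gap of 0.852 of the genotype's range and above Dixon's 95% critical value for 4 samples. Of 8 groups of values examined (4 depth measures in 2 genotypes) 1 had such a library, and chance gives about 1 in 20. The Alb-D2KO means of Cd36, Angptl4 and Vnn1 include this library, and its part in them was not tested.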

How the results depend on the processing

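No depth measure turned the direction of a member, and none could. The smallest fold of the list was 1.21, and the depth ratio furthest from equality was 0.890. When the genotypes' difference in assigned reads, in the upper quartile, in total reads and in the median was divided out, in this order, the ratio of Cd36 was 0.651, 0.659, 0.675 and 0.683, that of Angptl4 0.818, 0.827, 0.848 and 0.857, and that of Vnn1 0.576, 0.582, 0.597 and 0.603. Of the 3 members lower, 0 were at least 2-fold lower, and 2 (Cd36 and Vnn1) were at least 1.2-fold lower with the medians divided out. Of 22 function-list genes lower, 9 were at least 1.5-fold and 4 at least 2-fold lower, and 20 or 16 were at least 1.2-fold lower with assigned reads or medians divided out. The share of listed genes lower was 85.0% among those at least 1.5-fold different, 81.0% at 2-fold and 85.9% with the medians divided out. Direct repeats in promoters fell from 3.86% to 0.554% with at most 1 mismatch and were 24.6% with 3, by construction of the search. The log2 depth difference ran from -0.18 to -0.06 with each library left out, and its lowest exact permutation p was 0.0714, without Alb-D2KO replicate 1. Minimum summed counts of 100 and 1000 could not remove a member, since the lowest summed count of the 3 was 3063, for Vnn1. No paired analysis was possible because the labels number no replicates across genotypes and the gene means are pooled. The permutation tests of depth therefore took no account of litter, although the study describes the controls as littermates.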

Other observations

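Around Angptl4, 1 of 45 protein-coding genes within 500 kb was listed, the MHC class II gene H2-Oa, at a ratio of 0.398 and a distance of 310510 bases. The non-coding genes Gm17251, 11880 bases away, and Gm20507, 128045 bases away, were listed at 0.719 and 1.92, so the genes listed beside Angptl4 did not share a direction.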
